A study of Homo sapiens with 12 samples.

Results

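SESN1, SESN2 and DDIT4 encode inhibitors of mTORC1, and their transcripts were followed in human colorectal cancer cells with and without Nutlin-3a. The 3 genes were taken by symbol from the 14118 genes that had a named row on the array, and each was read by 1 probe set. The groups were HCT116, SW48 and RKO cells given 10 µM Nutlin-3a for 8 h and the same lines left untreated, with 2 Affymetrix Human Gene 2.0 ST arrays in each of the 6 groups. All 3 lines are labelled wild type for p53, and Nutlin-3a stabilizes p53 by keeping MDM2 from binding it. The treatment was 1 dose at 1 time, and no line lacking p53 is among these samples, so what follows is the response to the compound in cells that carry p53. Whether the 2 arrays of a group came from separate cultures is not said in the labels, and the p-values therefore reflect only how far these samples differ, which may be technical.

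mTORC1 is a kinase complex at the lysosome that promotes protein synthesis and growth when amino acids, energy and growth factors are plentiful. Sestrins act on the amino acid branch: they bind the GATOR2 complex, and by doing so release GATOR1, which turns off the Rag GTPases that bring mTORC1 to the lysosome. Sestrin 2, the SESN2 product, is also a sensor of leucine. DDIT4, also called REDD1, acts on the growth factor branch through the TSC complex, the inhibitor of the GTPase RHEB. SESN1 and SESN2 are known targets of p53, SESN2 and DDIT4 also answer to the stress factor ATF4, and DDIT4 is known for its response to hypoxia and glucocorticoids as well.

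The stretch just upstream of each gene is shown because the 3 genes moved together with treatment. All 3 genes were matched in RefSeq promoter sequences of build GRCh38.p14, which list 5 start sites for them: 3 for SESN1, 1 for SESN2 and 1 for DDIT4. Printed below are the 250 bases before a start site, for SESN1 those of the most downstream of its 3 sites. Capitals mark matches, on either strand, to the p53 decamer (the consensus unit of a p53 response element), to ACGTG (the core of hypoxia response elements), to the CCAAT box, to TGATGNAA (the ATF4 element) or to TGACNNNGC (the antioxidant element). The motifs were chosen for these genes with their results known, and overlapping matches would be drawn as 1 run.
SESN1, chr6:109008989-109009238, minus strand: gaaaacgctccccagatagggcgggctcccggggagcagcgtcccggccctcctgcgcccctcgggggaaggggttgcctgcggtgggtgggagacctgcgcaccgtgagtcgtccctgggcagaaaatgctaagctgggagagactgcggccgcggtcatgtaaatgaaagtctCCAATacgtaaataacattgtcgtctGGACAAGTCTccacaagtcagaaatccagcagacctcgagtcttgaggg
SESN2, chr1:28259268-28259517, plus strand: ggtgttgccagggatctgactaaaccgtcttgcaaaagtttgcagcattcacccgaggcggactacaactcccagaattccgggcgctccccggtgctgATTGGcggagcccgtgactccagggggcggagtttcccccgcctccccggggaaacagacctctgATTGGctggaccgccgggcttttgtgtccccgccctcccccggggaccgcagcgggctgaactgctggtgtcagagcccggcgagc
DDIT4, chr10:72273674-72273923, plus strand: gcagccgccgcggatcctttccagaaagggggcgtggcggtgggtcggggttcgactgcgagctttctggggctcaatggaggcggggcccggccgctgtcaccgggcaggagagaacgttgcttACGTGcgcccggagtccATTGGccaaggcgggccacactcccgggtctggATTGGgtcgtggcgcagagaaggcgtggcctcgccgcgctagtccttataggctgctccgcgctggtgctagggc

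The SESN1 window held the p53 decamer GGACAAGTCT, from base -49 to base -40 counted from the start site, and 5.57% of the 35114 start sites in the same RefSeq table hold one in a window of this length. All 3 SESN1 windows were searched, and counted per gene, 6.8% of 27303 genes hold a p53 decamer in at least 1 window. The other 2 SESN1 windows, the SESN2 window and the DDIT4 window held no such letters. The DDIT4 window held ACGTG at bases -125 to -121, as do 18.5% of start sites. CCAAT boxes, present at 32% of start sites, were found once in the SESN1 window shown and 2 times each in those of SESN2 and DDIT4. The antioxidant element (10.9% of start sites) was found in the middle SESN1 window only, and the ATF4 element (3.14%) in none of the 5. These are matches of letters and not measurements of binding.

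The deposited values were on a log2 scale, with column medians from 4.97 to 5.05 over the 12 arrays. Over all probe sets, arrays of the same group had a correlation of 0.996 to 0.997, and no array stood apart. Differences are given in log2 units with their standard error from 1 limma model over the 12 arrays, and a gene was called at a Benjamini-Hochberg adjusted p under 0.05 over all 14118 genes. A probe set's level depends on its probes, so levels are compared between groups within a gene and not between genes.

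SESN1, the sestrin first described as a p53-induced gene, rose in every line. In HCT116 its log2 values were 8.84 and 8.76 with Nutlin-3a, against 6.93 and 6.91 untreated. In SW48 they were 8.60 and 8.63 with Nutlin-3a, against 6.84 and 7.01 untreated. RKO arrays read 9.18 and 9.17 with Nutlin-3a, against 7.78 and 7.70 untreated. Every treated array lay above every untreated array of any line, and the gap between the 2 arrays of a group was at most 0.17. The rises were 3.69-fold in HCT116 (log2 difference 1.88 ± 0.070, adjusted p = 1.35e-06), 3.22-fold in SW48 (1.69 ± 0.070, adjusted p = 3.86e-06) and 2.71-fold in RKO (1.44 ± 0.070, adjusted p = 8.97e-06). In such bulk samples a change in the number of cells that express a gene and a change in RNA per cell cannot be told apart.

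SESN2, the leucine-binding sestrin, rose by similar amounts. HCT116 cells read 10.28 and 10.45 with Nutlin-3a, against 8.87 and 8.77 untreated. SW48 cells read 9.92 and 9.95 with Nutlin-3a, against 8.46 and 8.33 untreated. For RKO the values were 10.75 and 10.70 with Nutlin-3a, against 9.52 and 9.45 untreated. As with SESN1, no treated array of any line fell to the level of an untreated one. The rise was 2.92-fold in HCT116 (1.55 ± 0.078, adjusted p = 6.37e-06) and 2.91-fold in SW48 (1.54 ± 0.078, adjusted p = 1.31e-05). It was 2.37-fold in RKO (1.24 ± 0.078, adjusted p = 5.91e-05).

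DDIT4 rose in each line from very different starting levels. Values in HCT116 were 10.86 and 10.81 with Nutlin-3a, against 9.36 and 9.31 untreated. Values in SW48 were 9.45 and 9.58 with Nutlin-3a, against 8.24 and 8.27 untreated. Those in RKO were 8.16 and 8.34 with Nutlin-3a, against 7.18 and 7.06 untreated. Within each line the groups were well separated, but across lines they were not: treated RKO cells sat at the level of untreated SW48 cells and below untreated HCT116 cells. DDIT4 rose 2.82-fold in HCT116 (1.50 ± 0.079, adjusted p = 7.54e-06), 2.39-fold in SW48 (1.26 ± 0.079, adjusted p = 3.49e-05) and 2.19-fold in RKO (1.13 ± 0.079, adjusted p = 8.23e-05).

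**Figure D1:**
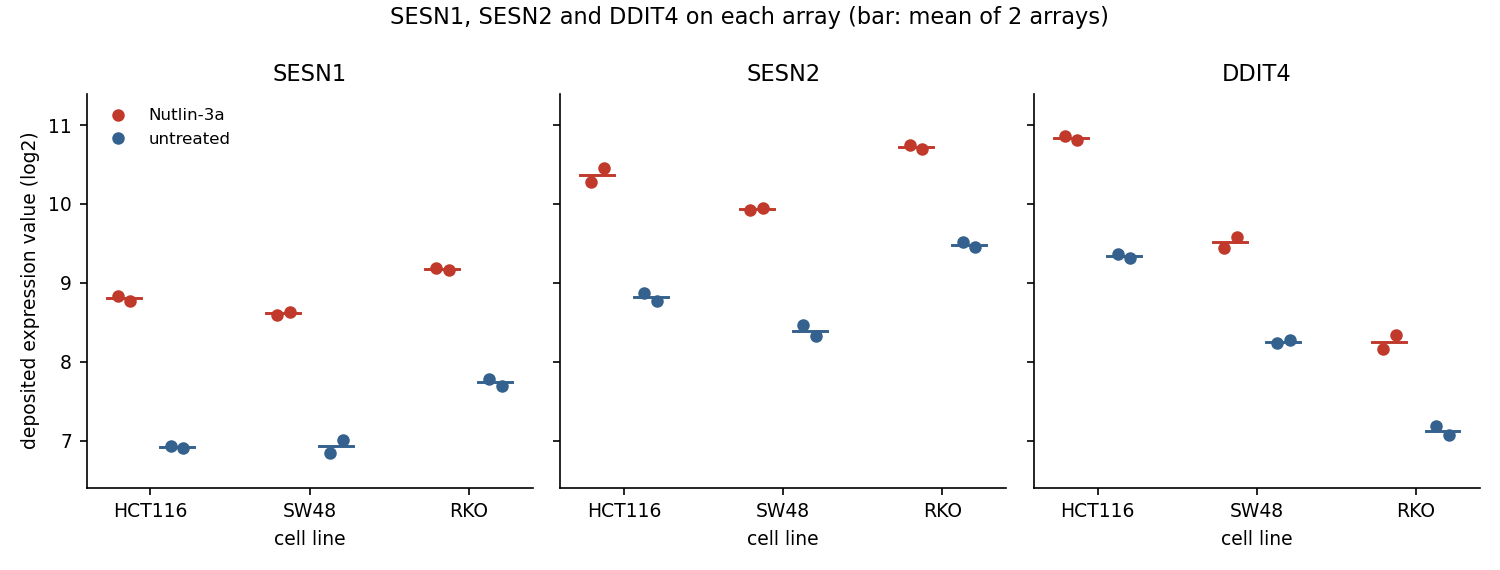
Deposited log2 expression values (vertical axis) of SESN1, SESN2 and DDIT4 on each of the 12 arrays, by cell line, with Nutlin-3a in red and untreated in blue; points are arrays and bars are means of 2 arrays. Both treated arrays lie above both untreated arrays in each line, and the DDIT4 values step down across the lines while the sestrins are highest in RKO.

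All 3 genes were called higher in all 3 lines. Of all genes, 5.11% were called in either direction in HCT116, 3.12% in SW48 and 2.02% in RKO. The share called higher was 3.08% in HCT116, 1.38% in SW48 and 1.23% in RKO, and 0.545% were called higher in all 3 lines. Both treated arrays lay above both untreated arrays for all 3 genes in each line, which also held for 23.9% of all genes in HCT116, 19.3% in SW48 and 20.6% in RKO. Of the 77 genes called higher in all 3 lines, 14 rose at least 2-fold in each, and SESN1, SESN2 and DDIT4 were among the 14. Counted from the highest log2 difference among 14118 genes, SESN1 stood at rank 5 in HCT116, 5 in SW48 and 7 in RKO. SESN2 stood at ranks 10, 8 and 12 and DDIT4 at ranks 14, 13 and 16 in the same lines. The other 11 of the 14, none of which is in the pathway lists used here, were MIR3189 (which lies within GDF15), TP53INP1, GDF15, DNAI3, TP53I3, PURPL, ACER2, SUSD6, IKBIP, TIGAR and EFNB1.

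**Figure D2:**
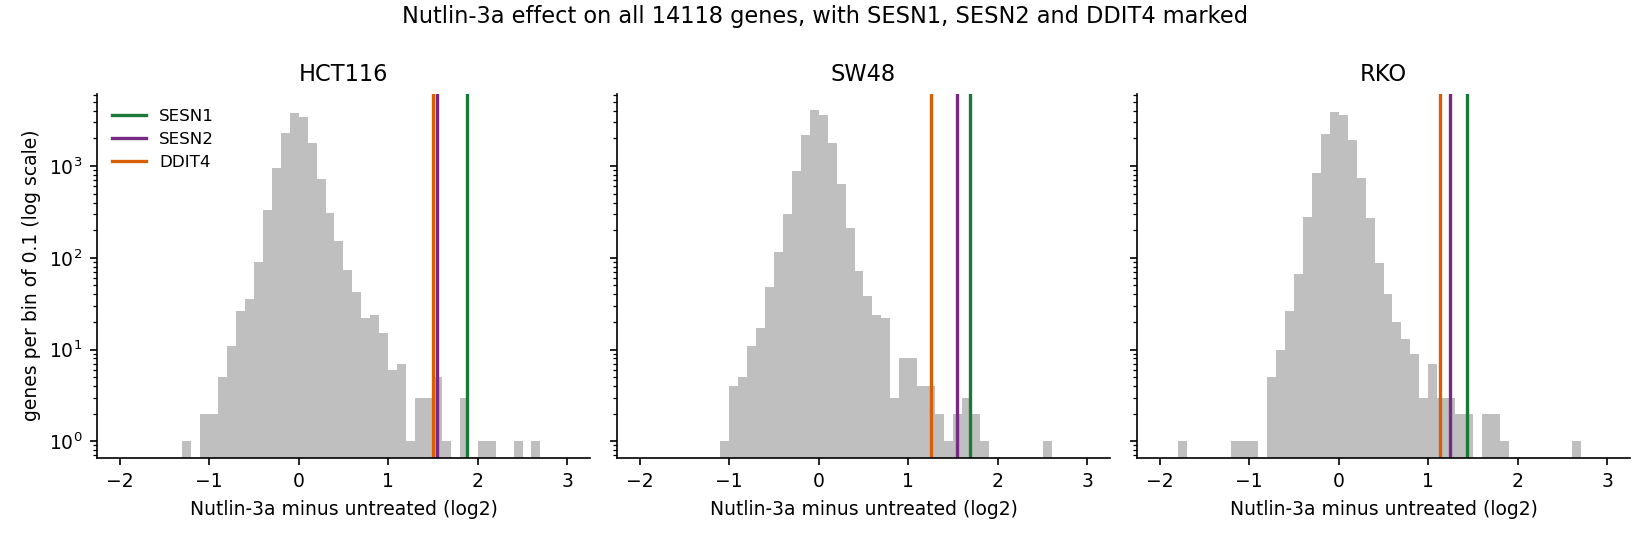
Histograms of the Nutlin-3a minus untreated difference (log2, horizontal axis) over 14118 genes in each line, with a log-scaled count of genes per bin of 0.1, and lines at SESN1, SESN2 and DDIT4. The 3 genes lie in the far right tail in each line, between ranks 5 and 16 counted from the highest difference.

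Whether the lines differed in the size of the response was tested directly. For each gene the estimate was lowest in RKO and highest in HCT116, although SESN2 was nearly level in SW48 and HCT116. SESN1 rose by 1.44 in RKO and 1.88 in HCT116, a difference of -0.45 (95% interval -0.67 to -0.22, adjusted p = 0.127). DDIT4 rose by 1.13 in RKO and 1.50 in HCT116, a difference of -0.37 (-0.62 to -0.12, adjusted p = 0.25), and for SESN2 the RKO minus HCT116 difference was -0.30 (-0.55 to -0.057, adjusted p = 0.323). RKO minus SW48 gave -0.25 for SESN1 (-0.47 to -0.029, adjusted p = 0.413), -0.30 for SESN2 (-0.55 to -0.052, adjusted p = 0.383) and -0.13 for DDIT4 (-0.38 to 0.12, adjusted p = 0.727).

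SW48 minus HCT116 gave -0.20 for SESN1 (-0.42 to 0.027, adjusted p = 0.437), -0.0046 for SESN2 (-0.25 to 0.24, adjusted p = 0.992) and -0.24 for DDIT4 (-0.49 to 0.012, adjusted p = 0.397). None of these 9 differences passed over all genes, where 0.212% to 0.361% of genes were called in a comparison of this kind. At unadjusted p under 0.05, 5 of the 9 differences passed, all of them lower in RKO. By absolute size these 5 stood at ranks 525 to 2276 of 14118. The share of all genes passing at this threshold was not counted, so the 5 cannot be set against it. The intervals reach down to -0.67 for RKO against HCT116, and a p above the threshold does not show that the lines respond alike. A smaller estimate in RKO was not peculiar to these genes: over the other 74 genes called higher in all 3 lines, the median log2 difference was 0.76 in HCT116, 0.71 in SW48 and 0.58 in RKO.

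The untreated lines differed in all 3 genes, and RKO had the highest sestrin levels and the lowest DDIT4 level. SESN1 averaged 7.74 ± 0.059 in RKO, against 6.92 ± 0.016 in HCT116 (SD, n = 2 each), a difference of 0.82 ± 0.070 (limma adjusted p = 6.7e-06), and was 0.81 ± 0.070 above SW48 (adjusted p = 5.79e-06). SW48, at 6.93 ± 0.12, did not differ detectably from HCT116 in SESN1 (difference 0.0070, 95% interval -0.15 to 0.16, adjusted p = 0.949). SESN2 averaged 9.48 ± 0.047 in RKO, 8.39 ± 0.097 in SW48 and 8.82 ± 0.069 in HCT116 (SD, n = 2 each). It was higher in RKO than in HCT116 by 0.66 ± 0.078 (adjusted p = 6.87e-05) and lower in SW48 than in HCT116 (-0.42 ± 0.078, adjusted p = 0.00124).

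Untreated DDIT4 was lowest in RKO and, like SESN2, lower in SW48 than in HCT116, with RKO at 7.12 ± 0.080, SW48 at 8.26 ± 0.024 and HCT116 at 9.34 ± 0.039 (SD, n = 2 each). RKO was 4.65-fold below HCT116 (-2.22 ± 0.079, limma adjusted p = 1.12e-08) and 2.19-fold below SW48 (-1.13 ± 0.079, adjusted p = 1.22e-06). SW48 was 2.12-fold below HCT116 (-1.08 ± 0.079, adjusted p = 1.72e-06). Differences between untreated lines are common on these arrays: 44.9% of genes were called between SW48 and HCT116, 41.5% between RKO and HCT116 and 44.7% between RKO and SW48. By absolute size, the DDIT4 difference between RKO and HCT116 stood at rank 299 of 14118. A cell line cannot be told apart here from any culture or array batch that goes with it.

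**Figure D3:**
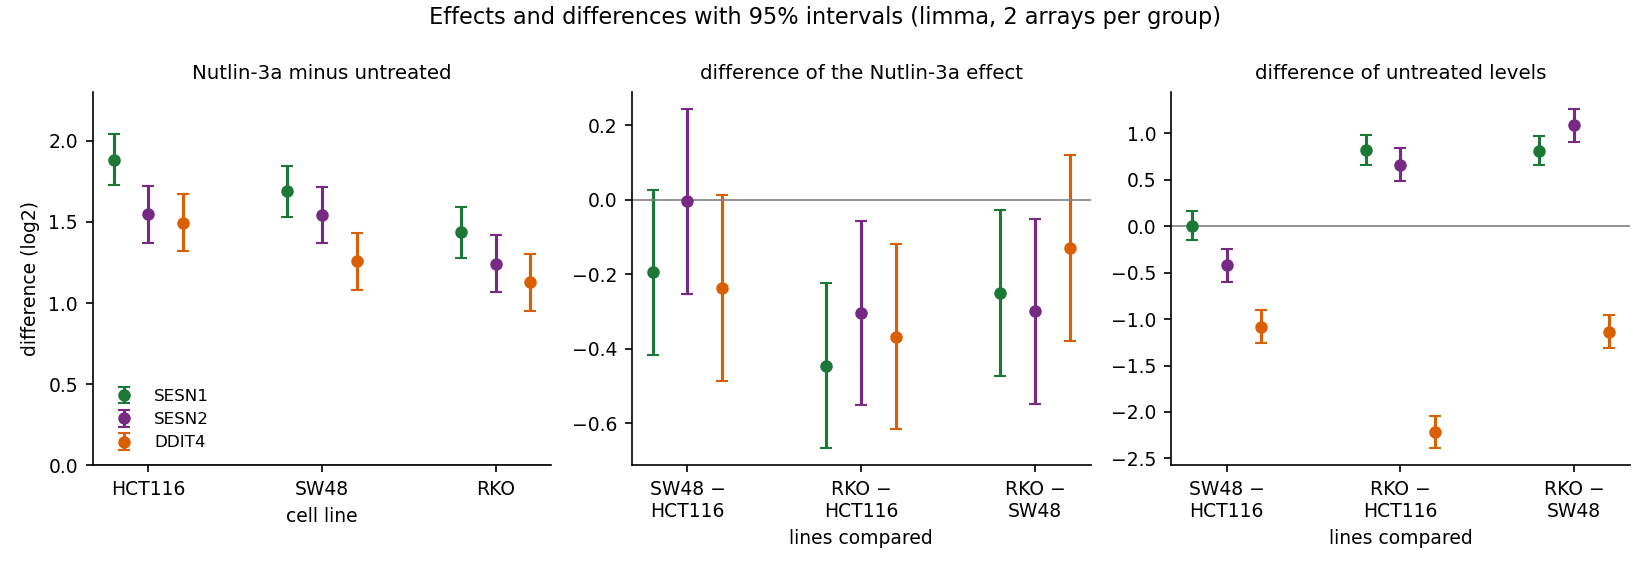
Log2 differences with 95% intervals from limma for SESN1, SESN2 and DDIT4: Nutlin-3a minus untreated in each line (left), differences of that effect between lines (middle) and differences between untreated lines (right). The effects lie between 1.13 and 1.88, the differences between effects reach -0.45, and the untreated difference in DDIT4 reaches -2.22.

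Over the 6 groups the levels were ordered as follows. For SESN1 the order was treated RKO, treated HCT116, treated SW48, untreated RKO, then untreated SW48 and HCT116, and the last pair was the one pair of neighbours whose arrays overlapped. SESN2 had the same order except that untreated HCT116 lay above untreated SW48, and each neighbouring difference, from 0.36 to 0.66, had a 95% interval above 0. DDIT4 was highest in treated HCT116 cells, followed by treated SW48, untreated HCT116, untreated SW48, treated RKO and untreated RKO. Treated SW48 cells were 0.18 above untreated HCT116 cells in DDIT4, with an interval from -0.00068 to 0.35. Treated RKO cells averaged 8.25 and untreated SW48 cells 8.26, and their arrays overlapped.

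The variation of each gene over the 12 arrays was split between treatment and cell line. Treatment accounted for 87.1% of the sum of squares of SESN1 and cell line for 11.7%. For SESN2 the shares were 77.1% and 21.7%. For DDIT4 they turned round, to 30.2% for treatment and 69.2% for cell line. The interaction of line and treatment took at most 1.04% and the spread within groups at most 0.419% in any of the 3 genes. The medians over all genes were 2.48% for treatment, 70% for cell line, 4.3% for the interaction and 11.7% within groups.

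Genes with the most similar profiles were found by the root mean square difference between group means over the 6 groups, after each gene was centred on its own mean. SESN1 and SESN2 were each other's nearest gene among all 14118, at 0.19 log2 units, while the median gene lay 0.92 from SESN1 and 0.84 from SESN2. Next to SESN1 came TIGAR, which encodes a phosphatase that restrains glycolysis (0.29), the oxidoreductase gene TP53I3 (0.35), the ribonucleotide reductase subunit gene RRM2B (0.35) and the zinc finger gene ZNF79 (0.37). Next to SESN2 came TIGAR (0.21), RRM2B (0.23), IKBIP (0.30) and ZNF79 (0.34). All 5 of these genes were called higher with Nutlin-3a in all 3 lines, with log2 differences from 0.94 (ZNF79 in SW48) to 2.20 (TP53I3 in HCT116). They were picked on the same treated and untreated means, so these calls largely follow from the selection.

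DDIT4 stood apart from both sestrins. It lay 1.25 from SESN1 and 1.23 from SESN2, farther than the median gene at 1.20. Nearest to it were the tyrosine kinase gene FRK (0.51), PWWP3B (0.56), the synaptotagmin gene SYT1 (0.59), the atypical cadherin gene FAT1 (0.59) and the aminopeptidase gene ENPEP (0.59). These followed the step down from HCT116 over SW48 to RKO, and none was called with Nutlin-3a in any line, with log2 differences from -0.11 to 0.65. Untreated and treated RKO means of FRK (3.66 and 4.31), PWWP3B (4.21 and 4.45) and ENPEP (4.11 and 4.02) lay below the array medians of 4.97 to 5.05. Changes at such low values may be poorly measured. When the variance prior was robust and followed intensity, FRK and FAT1 were called higher in HCT116 and RKO and ENPEP in HCT116 (lowest adjusted p = 0.0187). FRK was also called in RKO among genes with a mean of at least 5. ENPEP was also called in HCT116 in a fit of that line alone, and without either untreated SW48 array.

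**Figure D4:**
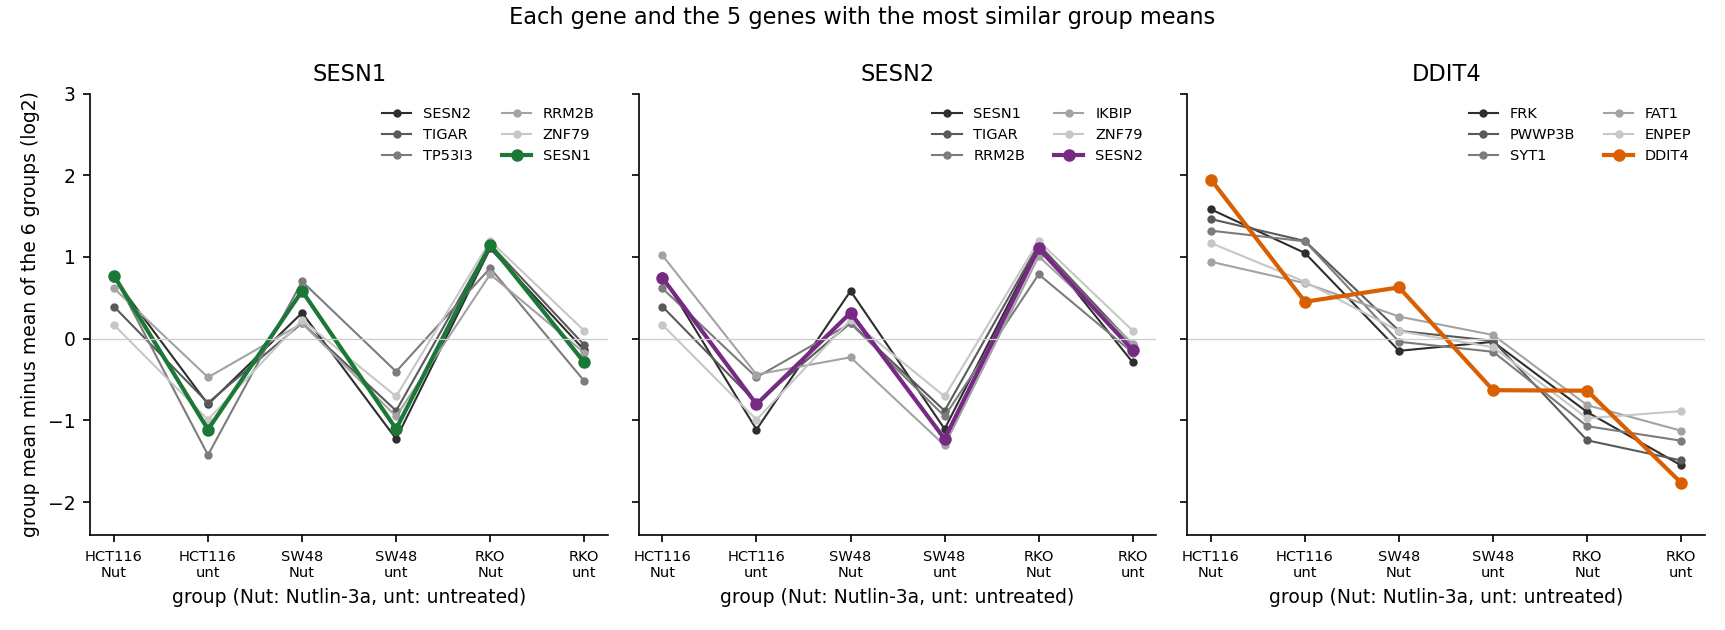
Group means minus each gene's mean over the 6 groups (log2, vertical axis) for SESN1, SESN2 and DDIT4 in colour and for the 5 genes nearest to each in grey. The sestrin panels alternate between treated and untreated groups, while the DDIT4 panel steps down from HCT116 to RKO with a treatment step that its neighbours lack or show weakly.

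Of 43 other measured mTORC1 genes, in 3 lists, 3 were called with Nutlin-3a in HCT116 (6.98%), 0 in SW48 and 1 in RKO (2.33%). Over all genes the shares called were 5.11%, 3.12% and 2.02% in the same lines, and 19.6%, 16.2% and 16.9% passed an unadjusted p under 0.05. In a list of relatives of the 3 inhibitors, 7 of 16 genes had a named row, and 0 of the 7 were called in any line by limma (at unadjusted p under 0.05, 2 in HCT116, 1 in SW48 and 0 in RKO), with medians of 0.11 in HCT116, 0.016 in SW48 and 0.073 in RKO against medians over all genes of -0.011, -0.013 and -0.0068. Among them were SESN3, the third sestrin (0.38 ± 0.15 in HCT116, adjusted p = 0.196; -0.27 ± 0.15 in SW48, adjusted p = 0.425; 0.16 ± 0.15 in RKO, adjusted p = 0.657), and DDIT4L, the paralog of DDIT4 (-0.17 ± 0.13, 0.21 ± 0.13 and -0.019 ± 0.13 in the same lines). The TSC complex genes TSC1 and TSC2, on which DDIT4 acts, lay between -0.015 and 0.15, and DEPTOR, which encodes an inhibitor within the mTOR complexes, between -0.040 and 0.14.

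Of 28 genes of amino acid sensing, where the sestrins act, 20 had a named row, and 1 was called in HCT116, 0 in SW48 and 1 in RKO. At unadjusted p under 0.05, 6 of the 20 passed in HCT116, 4 in SW48 and 6 in RKO, against 19.6%, 16.2% and 16.9% of all genes. WDR59, a GATOR2 subunit, rose in HCT116 (0.35 ± 0.065, adjusted p = 0.0141), and FLCN, the folliculin gene of the Rag pathway, rose in RKO (0.33 ± 0.058, adjusted p = 0.0243). Each lost its call when any 1 of the 4 arrays of its line was left out (adjusted p up to 0.116 for both), and FLCN also when arrays were centred on their medians. The medians were 0.0091 in HCT116, -0.023 in SW48 and 0.019 in RKO.

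In the list of mTOR complexes and their outputs, 16 of 22 genes were named. At unadjusted p under 0.05, 3 of the 16 passed in HCT116, 0 in SW48 and 4 in RKO, and 2 were called in HCT116 and 0 in SW48 and RKO. These were PDCD4, an inhibitor of translation that is degraded when mTORC1 is active (0.42 ± 0.095, adjusted p = 0.0352), and the autophagy initiation gene ATG13 (0.31 ± 0.057, adjusted p = 0.0138). For ATG13 the call was lost when any 1 of the 4 HCT116 arrays was left out (adjusted p up to 0.0942). PDCD4 lost it without untreated HCT116 replicate 1 or 2, Nutlin-3a HCT116 replicate 2, or either Nutlin-3a SW48 array (up to 0.203). MTOR itself (-0.11 to 0.13), RHEB (-0.16 to -0.058), the translation repressor gene EIF4EBP1 (-0.094 to 0.024) and the autophagy kinase gene ULK1 (-0.013 to 0.22) were not called in any line.

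**Figure D5:**
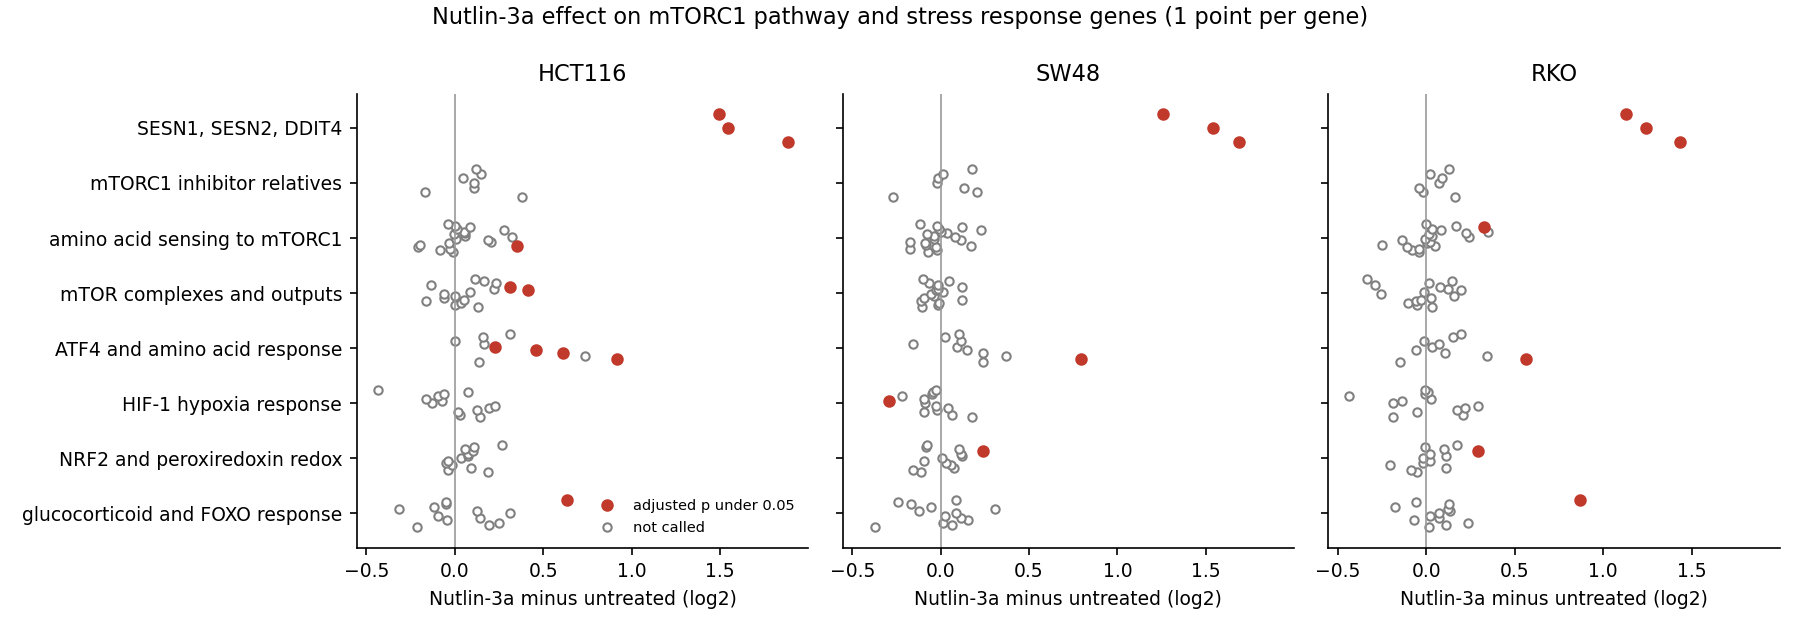
Nutlin-3a minus untreated difference (log2, horizontal axis) of every measured gene in the 7 lists of the mTORC1 pathway and of stress responses, with SESN1, SESN2 and DDIT4 on top; filled red points have an adjusted p under 0.05. The 3 inhibitors lie at 1.13 or above in each line, and the highest list gene, DDIT3 in HCT116, lies at 0.92.

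Stress responses that are known to act on these genes were described in the same way. In the list of ATF4 and the amino acid response, 10 of 20 genes were named, and 4 were called higher in HCT116, 1 in SW48 and 1 in RKO. Over all genes, 3.08%, 1.38% and 1.23% were called higher in the same lines. The medians of the list were 0.27, 0.13 and 0.088, against -0.011, -0.013 and -0.0068 over all genes. At unadjusted p under 0.05, 8 of the 10 passed in HCT116, 4 in SW48 and 2 in RKO, against 19.6%, 16.2% and 16.9% of all genes. DDIT3, the transcription factor CHOP, rose in all 3 lines (0.92 ± 0.11 in HCT116, 0.79 ± 0.11 in SW48 and 0.56 ± 0.11 in RKO, adjusted p at most 0.0362). The asparagine synthetase gene ASNS (0.61 ± 0.057), the pseudokinase gene TRIB3 (0.46 ± 0.080) and the serine synthesis gene PSAT1 (0.23 ± 0.056) rose in HCT116. ATF4 itself lay at 0.14 ± 0.10 in HCT116, 0.24 ± 0.10 in SW48 and -0.15 ± 0.10 in RKO and was not called. PSAT1 lost its call without any 1 of the 12 arrays (adjusted p up to 0.192), TRIB3 without untreated HCT116 replicate 1 or either Nutlin-3a HCT116 array (up to 0.0911). In RKO, DDIT3 lost its call without 9 of the 12 arrays, those other than both untreated HCT116 arrays and untreated RKO replicate 1 (up to 0.168).

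Of 20 HIF-1 hypoxia response genes 13 were named, and the 1 called was EGLN3, a prolyl hydroxylase gene induced by hypoxia, which fell in SW48 (-0.29 ± 0.060, adjusted p = 0.0297). Its call was lost without any 1 SW48 array or either untreated HCT116 array (adjusted p up to 0.161). At unadjusted p under 0.05, 4 of the 13 passed in HCT116, 2 in SW48 and 8 in RKO. Of all genes, 19.6%, 16.2% and 16.9% did so in the same lines, and 0 of the list were called in HCT116 or RKO. Medians of this list were 0.016 in HCT116, -0.045 in SW48 and -0.0057 in RKO. Of 18 NRF2 and peroxiredoxin genes 13 were named, and HMOX1, the heme oxygenase gene, was the 1 called, in SW48 (0.24 ± 0.054, adjusted p = 0.0453) and RKO (0.29 ± 0.054, adjusted p = 0.0294). It lost the SW48 call without any 1 of the 12 arrays (adjusted p up to 0.204) and the RKO call without any 1 RKO array or either untreated HCT116 array (up to 0.151), and with each array centred on its median it was called in neither line. In the NRF2 list, 2 of the 13 passed an unadjusted p under 0.05 in each line.

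Of 15 glucocorticoid and FOXO response genes 13 were named, and CCNG2, the cyclin G2 gene, was the 1 called, rising in HCT116 (0.63 ± 0.058, adjusted p = 0.000236) and RKO (0.87 ± 0.058, adjusted p = 7.79e-05) and lying at 0.088 ± 0.058 in SW48 (adjusted p = 0.517). Of the 13, 3 passed an unadjusted p under 0.05 in HCT116, 3 in SW48 and 2 in RKO. Over all genes the shares were 19.6%, 16.2% and 16.9%. The 3 mTORC1 inhibitors thus rose by 1.13 to 1.88 in lines where the largest called change in any of the 7 lists was 0.92. Whether any of these factors took part in the rise of SESN2 or DDIT4 was not tested.

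Cell identity was checked with marker lists, because the labels' extraction text speaks of thyroids. Of 11 thyroid markers 7 were named, and their group means ran from 4.17 to 6.24 in all 6 groups, below the median gene at 6.42 to 6.50. Of 12 colorectal epithelial markers 9 were named. EPCAM read 11.02 in untreated HCT116 and 11.12 in untreated SW48 but 6.03 in untreated RKO. KRT19 read 10.13, 8.74 and 6.22 in the same order, and both genes were picked after their values were seen. CDX1 (5.87, 5.78 and 5.73), VIL1 (5.83, 5.98 and 5.71) and KRT20 (5.27, 4.41 and 4.17) read below the median gene in each untreated line. CEACAM5 did so in HCT116 (4.37) and RKO (4.67) but read 9.25 in SW48. CDX2, KRT8 and KRT18 read above the median gene in each untreated line. Of the 9 markers, 5 were called lower and 0 higher in untreated RKO than in untreated HCT116, and CDX1, CDX2, VIL1 and CEACAM5 were not called. Between untreated RKO and untreated SW48, 6 were called lower and 0 higher in RKO. Summed over the 9 markers, the 2 untreated arrays of a line lay at 65.0 and 65.3 in HCT116, 69.2 and 69.5 in SW48 and 53.8 and 54.1 in RKO. No marker of the colorectal, thyroid, immune, fibroblast or endothelial lists was called with Nutlin-3a in any line. At unadjusted p under 0.05, 2 immune markers passed in HCT116 and 1 in SW48, 1 fibroblast marker passed in SW48 and 1 in RKO, and 0 of the other lists did. The part of epithelial identity in the untreated differences of the 3 genes was not tested.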

How the data were processed

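RNA of 12 samples was measured on 1 array each. Per the labels, total RNA was used. The authors deposited log2 signals for each probe set on each array. GCOS was used, per the submitters' processing notes. Its version, background correction, summarization and normalization: not given in the sources used here. Because all values lie between 2.22 and 13.45, they were read as base 2. Of 37270 probe sets, 14530 (39%) had 1 gene symbol in the platform annotation, 0 had several, and all 14530 gene numbers were found in RefSeq (GRCh38.p14). The row with the highest mean stood for a gene, which gave 14118 genes. No dim probe sets were removed. Columns of samples not used numbered 0, and no columns were identical.

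limma 3.58.1 in R 4.3.3 fitted 6 group means (6 residual and 3.71 prior degrees of freedom) without a replicate block, and its calling was tested on simulated data. The simulated noise was independent between arrays and had the variances of the same model. It therefore cannot show how the calling fares where duplicates are technical or a batch is present. Contrasts were Nutlin-3a minus untreated per line, differences of these effects, and differences of untreated lines. Named genes are the 3 members, up to 4 called genes per list and line with the largest change, a fixed set of pathway genes, and the 5 genes nearest to each member. The epithelial markers, STK11, AKT1S1 and the 11 other genes that rose at least 2-fold in all 3 lines were named after their values were seen. The members, lists and motifs were chosen with earlier results of these data known. Other genes of the lists are not analysed here. Alternatives were median centring, quantile normalization, all probe sets, a mean of at least 5, an intensity trend with a robust prior, a fit of only the lines compared, each array left out, and the replicate number as a block. The number of arrays limits the precision.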

Additional observations from a re-analysis of the deposited data

Results flagged for a closer look

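The Nutlin-3a effect differed between lines for 3 named genes, by limma's test of the difference itself. For the cyclin G2 gene CCNG2 the SW48 effect minus the HCT116 effect was -0.55 ± 0.083 (adjusted p = 0.0359), and the RKO effect minus the SW48 effect was 0.78 ± 0.083 (adjusted p = 0.00649). For TP53I3, a near neighbour of SESN1, SW48 minus HCT116 was -1.09 ± 0.13 (adjusted p = 0.0186) and RKO minus HCT116 was -0.82 ± 0.13 (adjusted p = 0.0499). For ASNS, RKO minus HCT116 was -0.51 ± 0.080 (adjusted p = 0.0475). Without any 1 of the 12 arrays, the CCNG2 difference between SW48 and HCT116 (adjusted p up to 0.171), the ASNS difference (0.151) and the TP53I3 difference between RKO and HCT116 (0.142) were no longer called. The TP53I3 difference between SW48 and HCT116 was lost without untreated HCT116 replicate 2, Nutlin-3a HCT116 replicate 1, either untreated SW48 array or Nutlin-3a SW48 replicate 1 (up to 0.0863). The CCNG2 difference between RKO and SW48 was called without each array in turn (up to 0.0459).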

How the results depend on the processing

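All 9 Nutlin-3a effects on SESN1, SESN2 and DDIT4 kept their direction and call in 171 of 171 alternatives, with adjusted p at most 0.0297 (DDIT4 in RKO). Of 513 alternatives for the 3 genes, 505 kept direction and call, and 8 changed the sign of a value near 0 that was not called, for which the cause was not tested. The SW48 minus HCT116 difference of the SESN2 effect was 0.098 with quantile normalization and ran from -0.094 to 0.085 with 1 array left out. The SW48 minus HCT116 difference of untreated SESN1 was -0.049 with quantile normalization and ran from -0.080 to 0.094 with 1 array left out.

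Counts over all genes moved more, and the cause was not tested. They were 435 higher and 286 lower in HCT116, 195 and 246 in SW48, and 173 and 112 in RKO. Centred on medians, 180 were lower in HCT116. Over all probe sets, 282 were higher and 145 lower in HCT116, 129 lower in SW48, and 103 higher and 33 lower in RKO. With a mean of at least 5, 374 were lower in SW48 and 244 in RKO. The intensity trend gave 685 and 543 in HCT116, 301 and 569 in SW48, and 311 and 449 in RKO. Fits of 1 line, with fewer arrays, gave 150 and 58 in HCT116, 75 and 40 in SW48, and 31 and 0 in RKO, where limma had 1060 lower at unadjusted p under 0.05. With 1 array left out, counts ran from 173 to 422 higher and 87 to 270 lower in HCT116, 100 to 184 and 85 to 212 in SW48, and 80 to 146 and 16 to 80 in RKO. Of 1368 counts within lists, 98 moved. DDIT3 in HCT116 and SW48, ASNS in HCT116 and CCNG2 in HCT116 and RKO were called in each of 19 alternatives, and every other call named from the lists was lost in at least 1.

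The replicate number as a block gave 248 higher and 109 lower in HCT116, 115 and 103 in SW48, and 69 and 18 in RKO, and changed no call of the 3 genes; the CCNG2 difference between RKO and SW48 was lost with it (adjusted p = 0.0886). Deviations of same-numbered arrays correlated at 0.055 in HCT116, -0.039 in SW48 and -0.055 in RKO, so the numbers were not taken as pairs. Other probe sets for the 3 genes could not be tried, since each has 1. The 2 arrays per group limit what can be seen.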

Other observations

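Untreated lines also differed in other inhibitors of mTORC1 that did not pass the test with Nutlin-3a. SESN3, the third sestrin, averaged 7.36 in SW48 against 5.14 in HCT116, a difference of 2.23 ± 0.15 (limma adjusted p = 9.64e-07), while untreated RKO averaged 5.16. SESN3 was thus high in the line where untreated SESN2 was lowest. DEPTOR was also higher in SW48 than in HCT116, by 1.24 ± 0.083 (adjusted p = 9.04e-07). TSC1, a subunit of the TSC complex, was higher in RKO than in HCT116, by 1.01 ± 0.056 (adjusted p = 2.83e-07), and TSC2 by 0.77 ± 0.064 (adjusted p = 5.59e-06). DDIT4L was lower than in HCT116 both in SW48 (-0.96 ± 0.13, adjusted p = 0.000118) and in RKO (-0.95 ± 0.13, adjusted p = 0.000163), and untreated DDIT4 was lower in both lines as well. These 6 differences were called under every alternative run. Of the same list, STK11 was lower than in HCT116 in SW48 (-0.28, limma adjusted p = 0.00249) and RKO (-0.58, adjusted p = 2.03e-05). AKT1S1 was lower in RKO than in HCT116 (-0.36, adjusted p = 0.00241), and the alternatives were not run for STK11 and AKT1S1. Such differences are common: 44.9% of all genes were called between untreated SW48 and HCT116 and 41.5% between untreated RKO and HCT116.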
